A study of Homo sapiens with 4 samples.

Results

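Chromatin accessibility was described at 39 genes of the nuclear receptor superfamily, out of 20033 protein-coding genes, in human pancreatic progenitors cultured with or without I-BET151. The members were the listed receptor genes, and an accessible region was counted with a gene when it lay in the gene body or within 10 kb of it in GENCODE release 44. The lists of all 4 libraries were merged into 164301 regions (peaks that overlap by at least 1 bp), and 443 of them fell at the 39 loci, with 4 counted at a pair of neighbouring receptor genes. Each of the 39 genes had at least 1 region, and the nearest protein-coding start site belonged to a member for 331 of the 443 regions and to another gene for the other 112.

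The cells were pancreatic progenitors made from MEL1, 1 established human embryonic stem cell line (MEL1 INS GFP/W in the study's methods, with GFP at one allele of the insulin gene), so that all groups share 1 genetic background. Both groups were kept in EF6, a basal medium of DMEM with B27, EGF, bFGF and 616452 (an inhibitor of the TGF-β type I receptor). The DMSO group (2 libraries) received solvent and the I-BET151 group (2 libraries) received I-BET151, an inhibitor of the BET bromodomain proteins, at 1 μM for 7 days. ATAC-seq, in which a transposase cuts open chromatin, was performed on 50000 cells per library, and the comparison asks where accessibility differs after BET inhibition. The sources used here do not say whether replicates were separate cultures, so adjusted p-values measure only the spread between these libraries, which may be technical. In a bulk library, a change in the share of cells with an open region and a change within each cell cannot be told apart.

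Nuclear receptors are transcription factors, many of which are switched by small fat-soluble ligands such as steroid and thyroid hormones, vitamin D, retinoids, bile acids and fatty acids. A zinc-finger domain binds DNA at copies of a short hexamer, AGGTCA or a steroid variant of it, and a ligand-binding domain exchanges corepressors for coactivators. In the pancreas and its precursors, receptors of this family are known for roles in lineage choice, lipid and glucose sensing, and the response to hormones.

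The DMSO lists held 82568 and 38295 peaks and the I-BET151 lists 84995 and 111324, while the reads behind them, taken from the background level, were 38.7 and 36.6 M against 12.5 and 16.0 M. By this estimate depth differed with treatment, and the DMSO replicate 2 list stood apart as the shortest. The shortest peaks, of 200, 233, 200 and 256 bp (DMSO replicates 1 and 2, then I-BET151 replicates 1 and 2) also differed between replicates, and their cause was not tested. The fold enrichment is the reads at a peak's summit over the local background of the same library, with 1 added to both. Its median was 5.16, 4.60, 8.33 and 10.0 in the same order, over the 25627 regions called in all 4 lists. Fold enrichment is thus compared here by its rank within each list. Of the 10 progenitor markers, 8, 7, 9 and 9 had a called promoter, PTF1A in no list and PDX1 in both I-BET151 lists only. The same held for 1, 1, 1 and 2 of 5 pluripotency markers (POU5F1 and NANOG in no list), 1, 0, 2 and 1 of 5 endocrine, 2, 2, 3 and 3 of 5 fibroblast and 3, 2, 2 and 2 of 4 hepatocyte markers, and the part of these differences, of depth and of peak width in the results was not tested.

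The sequences on which the comparison turns are given first, on the plus strand of hg38 from stretches outside exons at or beside peak summits, with receptor or CTCF motif letters in capitals. The first 3 come from regions called in all 4 lists that changed rank with I-BET151. They lie in the ESRRB gene body (chr14:76352866-76353066), beyond the 3′ end of NR0B2 (chr1:26907601-26907801) and downstream of PPARA (chr22:46250055-46250255, 88 bp from the summit, whose own window holds exons). The capitals in the ESRRB sequence are a match to the consensus of CTCF, the zinc-finger protein of chromatin loop anchors.
ESRRB: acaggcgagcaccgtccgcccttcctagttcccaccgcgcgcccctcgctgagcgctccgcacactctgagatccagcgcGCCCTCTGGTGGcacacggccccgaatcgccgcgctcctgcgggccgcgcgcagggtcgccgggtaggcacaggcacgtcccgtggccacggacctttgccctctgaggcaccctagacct
NR0B2: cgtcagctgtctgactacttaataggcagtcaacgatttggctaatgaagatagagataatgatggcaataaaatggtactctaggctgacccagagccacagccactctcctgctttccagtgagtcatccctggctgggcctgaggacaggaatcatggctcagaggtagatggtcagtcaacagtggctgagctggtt
PPARA: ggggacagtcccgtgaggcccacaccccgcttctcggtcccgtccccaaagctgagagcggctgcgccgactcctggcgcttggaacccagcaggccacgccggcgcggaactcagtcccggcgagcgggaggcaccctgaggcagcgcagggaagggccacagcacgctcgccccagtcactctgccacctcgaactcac

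The next set was called with I-BET151 only, and holds the intronic regions with the highest fold at NR6A1 (chr9:124652721-124652921) and ESRRG (chr1:216633108-216633308), the VDR intron 3 region with a CTCF match (chr12:47870623-47870823) and 3 intronic regions with receptor letters. In THRB intron 3 (chr3:24264949-24265149) and PPARA intron 3 (chr22:46195852-46196052) the capitals mark AGGTCA preceded by AA, on the minus strand in THRB. NR3C2 intron 4 (chr4:148164762-148164962) holds AGGTCA or its reverse complement at 2 places.
NR6A1: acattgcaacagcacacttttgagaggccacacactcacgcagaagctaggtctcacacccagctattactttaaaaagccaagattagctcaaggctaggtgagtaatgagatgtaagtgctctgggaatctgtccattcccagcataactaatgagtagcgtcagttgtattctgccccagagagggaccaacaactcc
ESRRG: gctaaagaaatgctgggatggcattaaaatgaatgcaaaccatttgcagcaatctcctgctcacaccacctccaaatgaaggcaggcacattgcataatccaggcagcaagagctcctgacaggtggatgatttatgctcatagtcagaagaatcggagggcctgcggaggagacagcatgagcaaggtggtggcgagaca
VDR: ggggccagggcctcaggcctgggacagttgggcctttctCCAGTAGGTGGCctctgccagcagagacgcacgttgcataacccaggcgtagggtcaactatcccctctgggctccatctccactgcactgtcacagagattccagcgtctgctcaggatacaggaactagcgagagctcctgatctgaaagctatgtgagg
THRB: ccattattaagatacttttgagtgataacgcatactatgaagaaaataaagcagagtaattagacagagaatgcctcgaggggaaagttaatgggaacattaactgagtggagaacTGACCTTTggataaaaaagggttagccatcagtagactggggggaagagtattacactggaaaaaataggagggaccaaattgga
PPARA: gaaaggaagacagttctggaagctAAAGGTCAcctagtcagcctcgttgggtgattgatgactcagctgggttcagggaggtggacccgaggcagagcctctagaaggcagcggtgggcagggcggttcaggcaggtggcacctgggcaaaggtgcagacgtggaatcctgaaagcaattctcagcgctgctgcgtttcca
NR3C2: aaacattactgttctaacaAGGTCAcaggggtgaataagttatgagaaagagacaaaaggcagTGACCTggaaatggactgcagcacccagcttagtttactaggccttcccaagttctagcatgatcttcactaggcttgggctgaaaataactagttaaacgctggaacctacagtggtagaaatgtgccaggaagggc

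The last set shows the exon-free stretch beside the summit in a pair of promoters called with I-BET151 only, THRA (chr17:40063093-40063293) and RXRG (chr1:165445356-165445514), and the THRB intron 4 region called with DMSO only (chr3:24213064-24213264). None of the 3 holds a motif that was searched.
THRA: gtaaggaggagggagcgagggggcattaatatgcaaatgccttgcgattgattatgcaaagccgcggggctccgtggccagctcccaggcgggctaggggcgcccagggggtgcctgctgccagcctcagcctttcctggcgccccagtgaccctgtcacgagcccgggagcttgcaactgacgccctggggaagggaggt
RXRG: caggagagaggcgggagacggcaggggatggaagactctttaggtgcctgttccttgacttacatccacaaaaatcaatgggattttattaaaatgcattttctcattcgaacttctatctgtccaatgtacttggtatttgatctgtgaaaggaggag
THRB: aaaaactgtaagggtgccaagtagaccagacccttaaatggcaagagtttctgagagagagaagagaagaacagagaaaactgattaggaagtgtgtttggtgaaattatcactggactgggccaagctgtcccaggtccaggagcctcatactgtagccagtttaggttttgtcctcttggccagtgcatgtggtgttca

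At the receptor genes, 62 of 443 regions were gained, that is called with I-BET151 in each replicate and in neither DMSO list (14.0%, against 17.0% of all merged regions). The opposite pattern, called in both DMSO lists only (lost), was seen in 9 (2.03%, against 2.37%). Both shares were near those over the genome, and among peaks with a −log10 p of at least 10 the order for gained regions turned (25.8% against 23.3%). With the same number of peaks taken from every list, 17 of 190 receptor regions were gained (8.95%, against 9.19%). The gained regions were spread over 21 genes, and 24 of the 62 lay at ESRRG, NR3C2 and THRB (13, 6 and 5), and NR6A1 had another 5. Introns of the canonical transcript held 33 of the gained and 7 of the lost regions, and no intron share over all regions is given here. Another 105 regions were called in the I-BET151 replicate 2 list alone (23.7%, against 22.3% of all regions). The DMSO replicate 1 list alone held 72 (16.3%, against 18.1%). Each of these single-library calls outnumbered both patterns, at shares near those over the genome. The difference in calls was not tested.

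**Figure D1:**
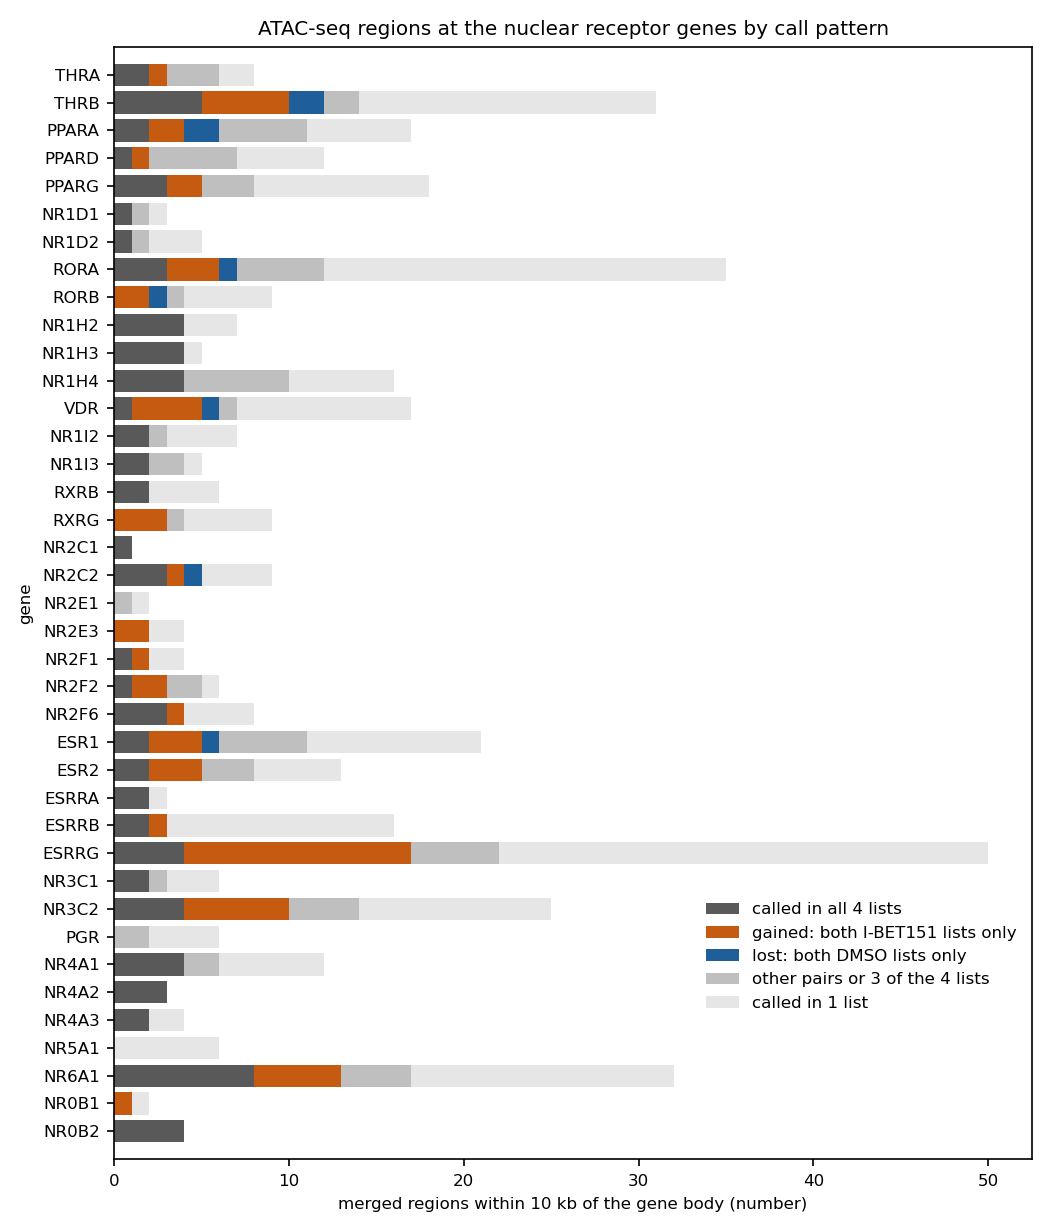
Number of merged ATAC-seq regions (x axis) within 10 kb of each of the 39 receptor genes (y axis), stacked by call pattern over the 4 lists. ESRRG has the longest bar, 50 regions of which 13 were gained, and lost regions appear at 7 genes.

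Among the 84 receptor regions called in all 4 lists (shared), rank by fold rose at 4 (4.76%, against 3.41% of all shared regions) and fell at 1 (1.19%, against 1.96%), by limma on normal scores of the ranks with Benjamini-Hochberg adjustment over all 25627 regions. The rank shift, in SD units of a normal score, had a median of -0.10 over the receptor regions and -0.03 over all. At an unadjusted p under 0.05, 15 receptor regions were higher and 9 lower, which is 28.6% of 84 against 24.9% of all shared regions. Fold enrichment itself was higher in both I-BET151 lists than in both DMSO lists at 77 of the 84 regions, 91.7% against 90.1% of all, and lower at 0, against 0.242%. The rise in fold was common to the whole lists, which is why ranks carry the comparison.

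NR2C2 encodes testicular receptor 4, an orphan receptor that binds direct repeats. Its called region (chr3:15051480-15052024, hg38) lay 104200 bp from the canonical start site, in the gene body beyond the canonical transcript and also inside MRPS25, a mitochondrial ribosomal protein gene. Fold enrichment was 4.46 and 3.59 with DMSO and 14.7 and 16.6 with I-BET151. In rank it went from percentiles 33.1 and 18.7 of the shared regions to 95.7 and 95.9. Both I-BET151 values stood far above both DMSO values, and the rank shift was 2.39 ± 0.38 (SE, n = 2 per group, limma adjusted p = 0.00595). The summit pileup was 23 and 18 reads with DMSO and 39 and 65 with I-BET151, in the shallower libraries. The second NR2C2 call of interest went the other way. A region over coding exon 10, again shared with MRPS25, had a fold of 4.36 and 3.27 with DMSO and was in no I-BET151 list.

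PPARA is the receptor for fatty acids that drives their oxidation. The region that rose (chr22:46249964-46250743) lay downstream of PPARA, but its summit was 50 bp from the start site of CDPF1, so that it is the CDPF1 promoter by position. Fold was 3.05 and 3.00 with DMSO and 9.88 and 10.95 with I-BET151, and the percentile went from 3.18 and 4.84 to 66.4 and 60.3. The groups did not overlap, with a shift of 2.1 ± 0.38 (SE, limma adjusted p = 0.0106). At the promoter of PPARA itself, fold was 3.35 in DMSO replicate 1, 5.75 and 5.14 with I-BET151, and no peak was called in DMSO replicate 2.

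NR4A1, an immediate early orphan receptor induced by many stimuli, was the only member whose own promoter passed the rank test. The region (chr12:52050647-52052022) had its summit 19 bp after the start site, in the 5′ UTR of exon 1. Fold was 2.62 and 2.71 with DMSO, the lowest promoter values of any member in those lists, and 6.44 and 8.73 with I-BET151. Its percentile went from 0.379 and 1.25 to 26.9 and 34.3, a shift of 1.95 ± 0.38 (SE, limma adjusted p = 0.0145). The summit held 29 and 28 reads with DMSO and 29 and 71 with I-BET151. It was thus in the weakest few percent of shared regions in both DMSO lists and well above them in the I-BET151 lists. The other NR4A promoters, of genes with a like early response, gave a shift of -0.50 (NR4A2) and -0.28 (NR4A3), neither past the threshold.

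ESRRB encodes an estrogen-related receptor known from pluripotent mouse cells. No list held a peak over its canonical promoter, but a region of its gene body 23171 bp upstream of that start site (chr14:76352633-76353306) rose in rank. Fold was 2.77 and 2.76 with DMSO and 7.58 and 7.23 with I-BET151, and the percentile went from 0.919 and 1.70 to 40.9 and 18.3, a shift of 1.67 ± 0.40 (SE, limma adjusted p = 0.0275). The summit pileup stayed between 19 and 23 reads in all 4 libraries. This is the region printed above with a CTCF match.

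NR0B2 (SHP) lacks a DNA-binding domain and represses other receptors, among them those of bile acid synthesis. Its region that fell (chr1:26907522-26907933) lay 6274 bp from the start site, beyond the 3′ end of the gene and inside NUDC. Fold was 5.28 and 4.32 with DMSO and 4.19 and 6.01 with I-BET151. Fold thus overlapped between the groups, and it was the rank that fell, from percentiles 53.2 and 41.2 to 3.85 and 8.75, with a shift of -1.49 ± 0.39 (SE, limma adjusted p = 0.0386). The summit held 39 and 31 reads with DMSO and 13 and 43 with I-BET151. The NR0B2 promoter was called in all 4 lists, at 4.80 and 4.24 with DMSO and 8.45 and 7.77 with I-BET151, with a shift of -0.10.

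The 5 calls depended on the choice of scale and on single libraries, while the direction of the shift did not in these settings. Ranked by −log10 p in place of fold, each of the 5 kept its direction but missed the threshold (limma adjusted p between 0.0706 and 0.192), and on centred log2 fold the calls of NR4A1 and ESRRB were lost as well (adjusted p = 0.0732 and 0.114). Without DMSO replicate 1, only the NR2C2 call was kept, and without DMSO replicate 2 those of NR2C2, ESRRB and NR0B2 were lost. The NR0B2 call was also lost without I-BET151 replicate 1 (adjusted p = 0.120). Where a call was lost, the size of the shift changed to differing degrees. By −log10 p, NR2C2, NR4A1 and ESRRB had smaller shifts (1.62, 1.45 and 1.15), while those of PPARA and NR0B2 stayed near their size. Without DMSO replicate 1 the shift was 1.92 at PPARA, 1.62 at NR4A1, 1.46 at ESRRB and -1.37 at NR0B2. Without DMSO replicate 2 it was 2.01 at NR2C2, 1.74 at ESRRB and -1.67 at NR0B2. The NR0B2 shift was -1.14 without I-BET151 replicate 1.

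**Figure D2:**
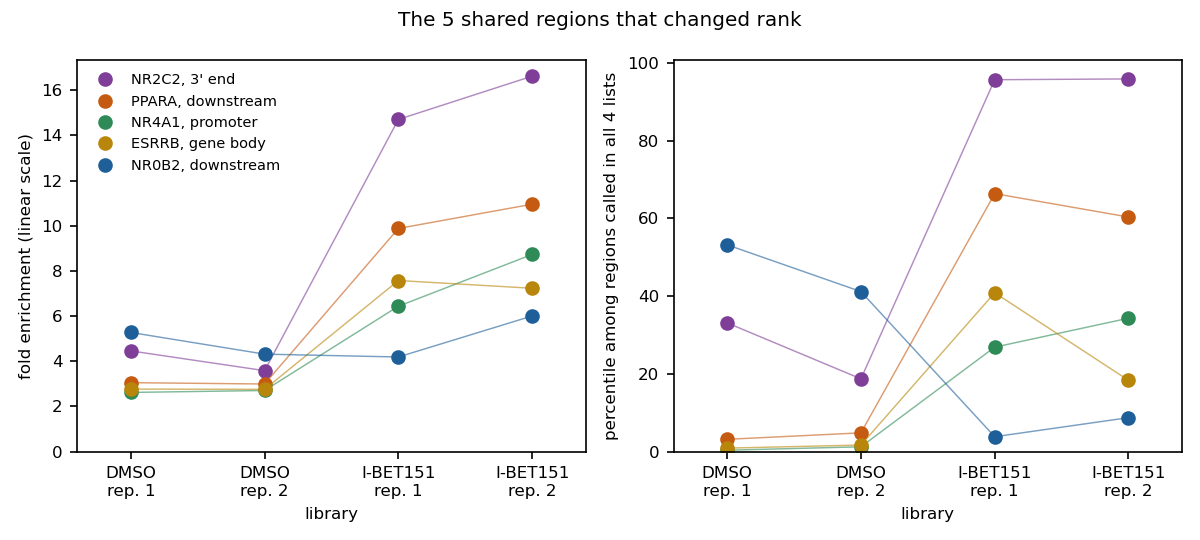
Fold enrichment on a linear scale (left) and percentile among the regions called in all 4 lists (right) of the 5 shared receptor regions that changed rank, in each library (x axis). At NR2C2, PPARA, NR4A1 and ESRRB both I-BET151 points lie above both DMSO points in either panel, and NR0B2 falls in percentile from 53.2 and 41.2 to 3.85 and 8.75 while its fold overlaps.

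A promoter was scored as open when a called region lay within 1 kb of the canonical start site. Both DMSO lists held a region over 24 of the 39 receptor promoters (61.5%, against 54.5% of all protein-coding genes) and both I-BET151 lists over 33 (84.6%, against 65.4%). With the same number of peaks from every list the counts were 20 and 22, and no share over all genes is given here at that setting. All 4 lists held 23 of the promoters. Over these 23, fold ran from 2.62 (NR4A1) to 8.43 (NR2C2) in DMSO replicate 1 and from 2.71 (NR4A1) to 7.14 (NR1H2) in replicate 2. With I-BET151 it ran from 4.21 to 15.5 and from 4.13 to 17.1, where NR4A2 was lowest and PPARD highest in both lists. The median fold of the 23 was 4.80, 4.24, 6.95 and 8.22, below the median of all shared regions in each list.

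PPARD, the broadly expressed PPAR, had fold 8.23 and 7.10 with DMSO and 15.5 and 17.1 with I-BET151 over its promoter, the highest of the receptors with the inhibitor. ESRRG, an estrogen-related receptor of cells with high oxidative metabolism, had 8.38 and 6.72 with DMSO and 13.99 and 13.5 with I-BET151. NR3C2, the mineralocorticoid receptor, had 7.10 and 7.11 with DMSO and 11.9 and 12.5 with I-BET151. In these 3 the groups were apart in fold, but the rank shifts of 0.67, 0.04 and -0.20 did not pass the threshold. At NR1H2, the oxysterol receptor LXRβ, fold was 5.04 and 7.14 with DMSO and 6.95 and 11.5 with I-BET151, and the groups overlapped. The promoter of NR3C1, the glucocorticoid receptor, stayed low, at 3.74 and 3.00 with DMSO and 4.50 and 4.63 with I-BET151.

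Gained regions lay over 5 receptor promoters (12.8%, against 8.33% of all protein-coding genes) and lost ones over 0 (against 0.719%). THRA, the thyroid hormone receptor α gene, had a fold of 4.49 and 6.49 in the I-BET151 lists, with the summit 47 bp after the start site (chr17:40062816-40063629). RORA, a constitutive activator in the circadian clock, had 5.24 and 8.12 (chr15:61229137-61229613). RXRG, a retinoid X receptor and thereby a dimer partner of other members, had 4.92 and 8.03 (chr1:165444918-165445514). The remaining gained promoters were weaker or off the start site. NR2E3, known from photoreceptors, had 4.27 and 3.96, and NR0B1 (DAX1), a repressor without a DNA-binding domain, had 5.74 and 5.16 at a summit 885 bp after the start site, in coding exon 1. Pileups at these 5 summits ran from 9 to 32 reads, so that a call rests on few reads.

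Of the promoters called in some lists only, those of PPARA, RORB, NR2F2 and ESR2 were missing from DMSO replicate 2, the shortest list, and that of ESR1 from DMSO replicate 1. NR1I3, the xenobiotic receptor CAR, was missing from I-BET151 replicate 1 only. PGR and NR5A1, the progesterone receptor and the steroidogenic factor SF-1, had a promoter peak in DMSO replicate 1 alone (fold 3.89 and 2.75). At NR2F2, encoding the orphan receptor COUP-TFII, fold was 2.99 in DMSO replicate 1 and 9.51 and 9.03 with I-BET151. NR1H4 (the bile acid receptor FXR), NR2E1 and ESRRB had a promoter peak in no list. NR1H4 was nonetheless open elsewhere, with 4 shared regions, among them one in intron 3 at 7.31 and 6.72 with DMSO and 12.8 and 11.7 with I-BET151.

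**Figure D3:**
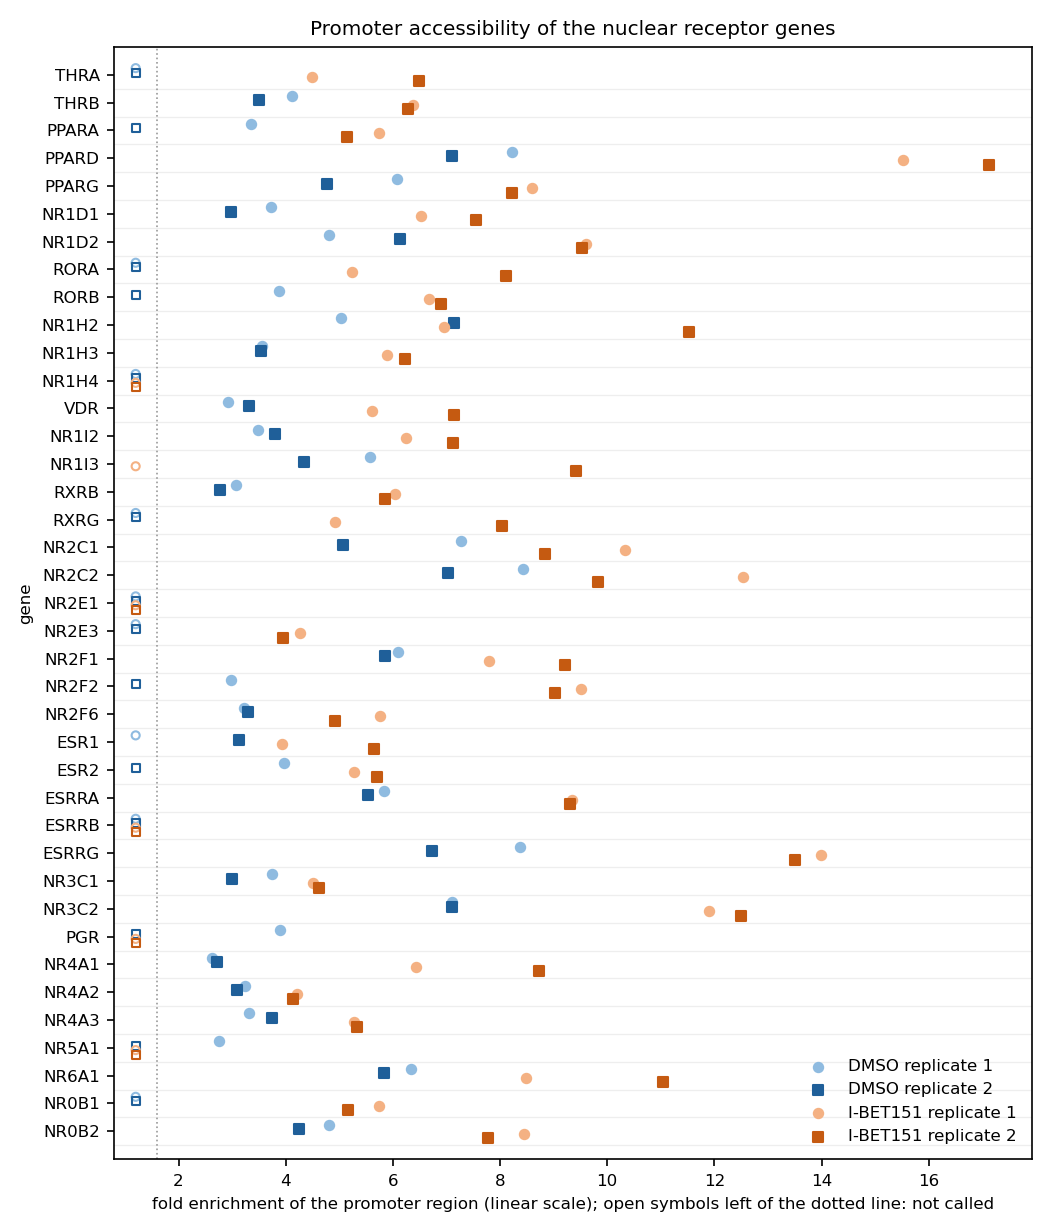
Fold enrichment of the region over the canonical promoter (x axis, linear scale) of each receptor gene (y axis) in each of the 4 libraries, with open symbols left of the dotted line where no peak was called. The I-BET151 points lie to the right at most genes, and 5 genes, THRA, RORA, RXRG, NR2E3 and NR0B1, have filled symbols for both I-BET151 lists only.

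By role, the estrogen-related receptors had the most gained regions, 14 of 69 (against 17.0% of all regions), of which 13 of 50 lay at ESRRG and 1 of 16 at ESRRB. Steroid receptors had 6 of 37, all at NR3C2, while NR3C1 and PGR had 0. Estrogen receptors had 6 of 34, split evenly between ESR1 and ESR2, and thyroid hormone receptors 6 of 39, of which 5 at THRB. COUP-TF genes had 4 of 18. The oxysterol and bile acid receptors NR1H2, NR1H3 and NR1H4 had 0 of 28, with 12 shared regions, and the NR4A genes 0 of 19, with 9 shared. No difference between roles was tested. Gene length differs among the members, and RORA, with a longer gene body (741 kb) than ESRRG (634.5 kb), had 35 regions of which 3 were gained.

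The strongest gained region was in intron 2 of NR6A1, the germ cell nuclear factor, at a fold of 9.88 and 12.8 in the I-BET151 lists. A second one lay in intron 3 of the same gene (chr9:124551643-124552270) at 9.49 and 9.33, closer to the start site of its neighbour NR5A1. Of the top 10, 3 were at ESRRG, at 11.3 and 9.71 (intron 3), 7.87 and 7.91 (26845 bp upstream of the canonical start site) and 7.80 and 9.48 (intron 3). The ESRRG folds stood at percentiles 69.8 to 92.8 of their lists. NR3C2 intron 2 had 9.28 and 9.51 (chr4:148376200-148376755), and VDR intron 3, in the vitamin D receptor gene, had 7.85 and 9.22 at the CTCF match printed above. RORB intron 1 had 7.28 and 8.34. A pair of the 10 has another candidate gene by position. The region downstream of RXRG (9.92 and 8.84) lay nearest to the start site of LMX1A, and the one at ESR2 (9.02 and 8.03) lies also inside SYNE2. Gained summits at the receptor genes had a pileup of 6 to 55 reads.

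The 9 lost regions stood at percentiles 1.58 to 69.0 of the DMSO lists. The one with the highest lower fold, in THRB intron 4, had 4.40 and 3.85 in the DMSO lists. ESR1 intron 3 had 3.62 and 4.09, and PPARA had 3.62 and 3.61 in intron 4 and 4.43 and 3.46 in intron 2. RORA intron 1 had 4.33 and 3.29, a second THRB region in intron 3 had 3.51 and 2.84, and RORB intron 1 had 3.33 and 2.58. VDR had 2.74 and 2.66 over its 3′ UTR, nearest to the start site of HDAC7. All 9 summits held 12 to 20 reads, and 0 of the 9 remained when peaks needed a −log10 p of at least 10. THRB, PPARA, RORA, RORB, NR2C2, VDR and ESR1 each had both gained and lost regions.

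To give each gene 1 value per library, the percentiles of its regions in a list were averaged, with 0 for a region not called (locus percentile). It was higher in both I-BET151 lists than in both DMSO lists at 20 of 39 receptor genes (51.3%, against 50.9% of protein-coding genes with a region) and lower in both at 1 (2.56%, against 3.68%). The median difference was 9.19 points over the receptors and 10.8 over all genes, of which 81.5% were higher. Without 1 library the receptor median ran from 4.21 points (without DMSO replicate 2) to 19.7 (without DMSO replicate 1). With the same number of peaks from every list it was 0, where a gene left without a region counts as 0, and 7 genes were higher in both I-BET151 lists. The counts with the full lists were near those over all genes, and no share over all genes is given here for equal peak numbers. With 2 libraries against 2 the exact permutation test cannot go below p = 0.33.

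NR2F2 had the largest rise, from 7.23 and 7.77 with DMSO to 43.96 and 32.7 with I-BET151. NR0B1 followed, from 0 in both DMSO lists to 27.3 and 31.8. NR4A1 went from 14.9 and 12.5 to 36.5 and 35.5. For NR2F2 and NR4A1 the groups were apart by more than the spread within either. NR0B1 had 2 regions, 1 gained and 1 called in I-BET151 replicate 2 only, so that its 0 with DMSO follows from the scoring. NR3C2 went from 23.3 and 13.5 to 32.9 and 45.9, and ESRRG from 13.7 and 7.23 to 26.3 and 35.5, also without overlap. These sizes and their order changed when the same number of peaks was taken from every list, and the part of list length was not tested. With equal peak numbers the differences of NR2F2, NR4A1, NR3C2 and ESRRG were 8.53, 11.7, 8.24 and 11.9 points in place of 30.8, 22.3, 21.0 and 20.4, and NR0B1 had no region left.

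NR4A2, a receptor best known from dopamine neurons, was the only member lower in both I-BET151 lists, at 40.5 and 49.2 with DMSO and 35.9 and 36.1 with I-BET151. All 3 of its regions were called in every list, and by −log10 p its difference turned to 11.3 points higher. The next falls, at PPARA (37.4 and 15.3, then 13.9 and 29.2), NR1I2 (46.3 and 19.4, then 22.7 and 34.8), ESRRA (70.2 and 52.4, then 60.2 and 56.3) and NR2C1 (94.8 and 72.5, then 89.6 and 77.4), all overlapped between groups. In each of these 4 genes DMSO replicate 2 was the lower DMSO library, and without DMSO replicate 1 each difference turned positive, at 8.89, 16.4, 8.74 and 10.99 points.

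**Figure D4:**
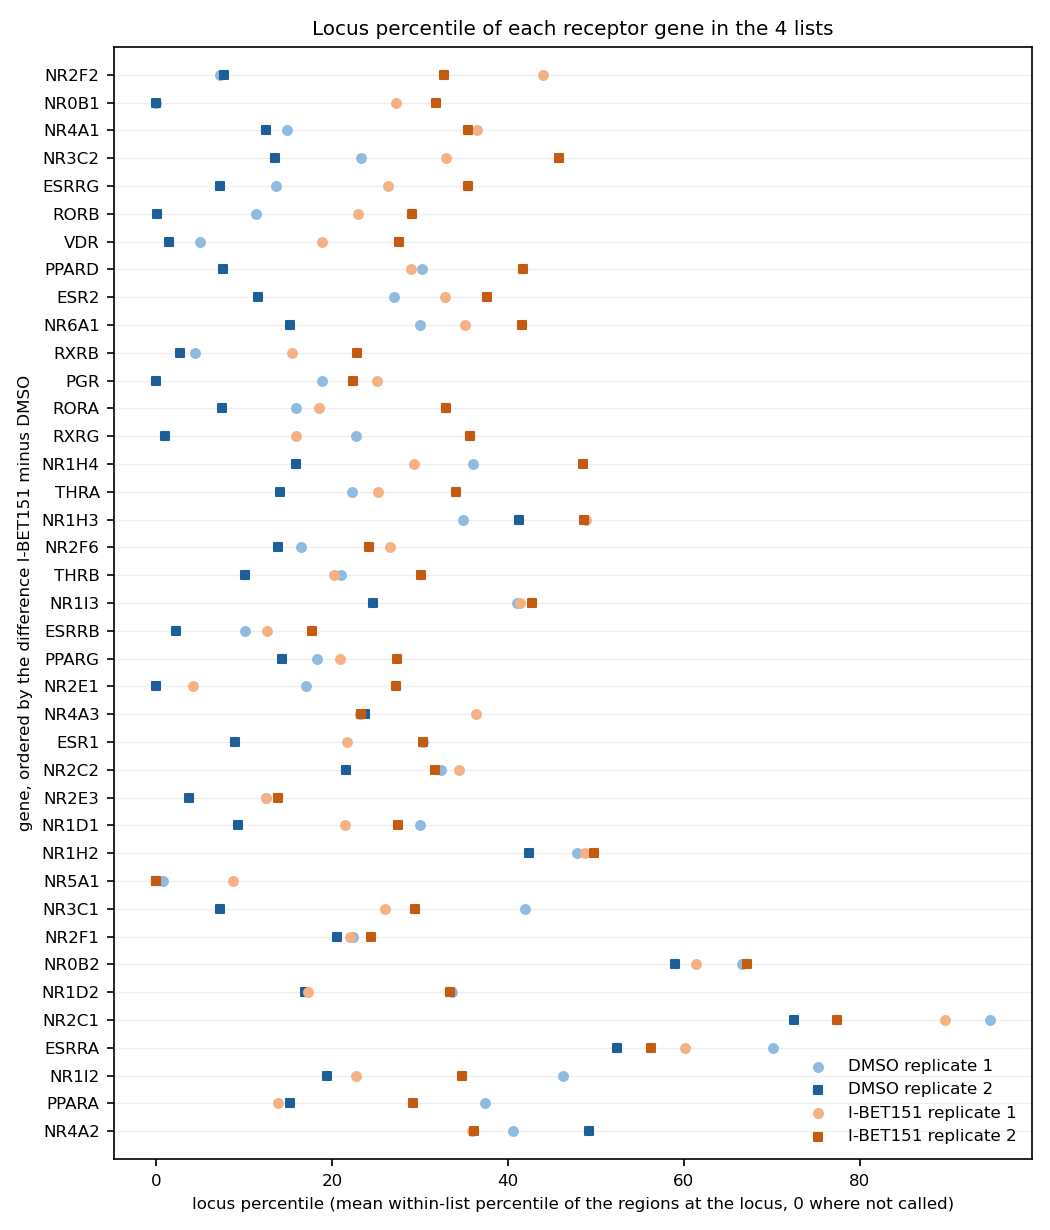
Locus percentile (x axis, mean within-list percentile of the regions at a gene, 0 where not called) of the 39 receptor genes (y axis, ordered by the difference) in each library. NR2F2 at the top goes from 7.23 and 7.77 to 43.96 and 32.7, and at the bottom NR4A2 is the only gene with both I-BET151 points below both DMSO points.

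Receptor binding letters were searched within 100 bp of each summit, on both strands. The hexamer AGGTCA occurred in 72 of 443 receptor regions (16.3%, as in 16.3% of all regions) and in 11 of the 62 gained ones (17.7%, against 15.9% of all gained regions). AGGTCA preceded by AA, which is a subset of these and a form bound by some receptor monomers, occurred in 8 (1.81%, against 2.12%), among them the gained regions of THRB and PPARA. Other extended forms were not searched. The CTCF consensus occurred in 6 (1.35%, against 1.86%) and in 2 of the gained, at VDR and RORA (3.23%, against 4.13%). Repeats of AGGTCA, direct with 1 base between (0.0219% of all regions) or inverted with 3 bases between (0.00365%), and the steroid receptor inverted repeat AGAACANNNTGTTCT (0.00913%) were in 0 of the receptor regions. The letters at the receptor loci were about as frequent as over the genome.

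Coregulators, the coactivators and corepressors through which receptors act, were described as a list of 13 other genes. They had 145 regions, of which 27 were gained (18.6%, against 17.0% of all) and 1 was lost (against 2.37%), at NCOA2. Of their 31 shared regions, 1 rose and 1 fell, against 3.41% and 1.96% of all shared regions, so that these counts were near the background. HDAC3, the deacetylase of the corepressor complex, rose at its promoter from 3.78 and 3.74 to 11.4 and 11.3 (rank shift 1.45 ± 0.39, SE, limma adjusted p = 0.0427). A region at -1716 bp from the start site of the corepressor NCOR1 fell in rank, at 4.47 and 4.51 with DMSO and 3.43 and 3.99 with I-BET151 (-2.29 ± 0.38, adjusted p = 0.00698). There both I-BET151 folds were below both DMSO folds, against the rise of the lists as a whole. Gained regions were 5 of 12 at TBL1X, 4 of 10 at NRIP1 and 4 of 7 at NSD1.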

How the data were processed

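The 4 ATAC-seq peak lists were used as deposited. Reads had been aligned by the authors with Bowtie2 (v2.2.5, hg38), filtered for duplicates and mitochondrial DNA, and passed to MACS2 (v2.1.2) one library at a time. Each deposited list holds a display score (not used), a ratio (fold enrichment at the peak summit) and −log10 of the p and q values. Although the methods state a p of 1e-05, the largest p in a list ran from 0.000408 to 0.00113. The lowest −log10 q was alike in the 4 lists, between 1.30 and 1.33. The stated threshold was tried as an alternative. The members and lists were chosen with earlier results of these data known.

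Peaks overlapping by 1 bp were merged. Shared regions were ranked by fold enrichment in each list, and normal scores of the ranks were compared with limma 3.58.1 (R 4.3.3, lmFit and eBayes, 2 libraries per group, Benjamini-Hochberg over all shared regions, threshold 0.05), after the step was tested on simulated data. The fit did not use replicate numbers. Pileups in whole reads and the reads per library were solved from fold, p and background, taking MACS2's default human genome size (2.7e9). The pileups carry counting error only, while the reads per library also rest on that genome size and on the shortest peak taken as the read extension. Other steps used Python 3.11.15 (numpy 2.4.6, pandas 2.3.3, scipy 1.17.1). Values in each library were given for regions past the threshold, gained promoters, the 10 strongest gained and lost regions (9 lost existed), and the 5 largest rises and falls in locus percentile. Further values of NR1H4, NR1H2, NR3C1, NR2F2, the 3 highest promoters and the called coregulator regions were added after seeing the data. Peak threshold, equal peak numbers, overlap, gene distance, promoter window, ranked value, scale, left-out libraries and pairing were varied. Groups came from the sample titles. One gene of the coregulator list and one promoter sequence are not reported here.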

Additional observations from a re-analysis of the deposited data

How the results depend on the processing

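Of 95 recomputed values, 67 stayed (counts within 1.5 times, the median difference within the SD of the replicate pairs), and 28 moved. The 4 receptor regions that rose and the 1 that fell became 0 and 0 when ranked by −log10 p, 2 and 3 on centred log2 fold, and 11 and 4 in a crossed pairing, added after seeing the data. Leaving out 1 library, which leaves 1 library in a group, moved the falling count each time. The rising count moved only without DMSO replicate 1 or without I-BET151 replicate 2. The counts over all shared regions changed as well. The 1 falling region was outside the gene body (0 there), and 2 fell within 50 kb. Over all shared regions the split of 875 up and 503 down became 8 and 27 by −log10 p, 597 and 1109 on log2 fold, and 1985 and 1567 crossed.

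The difference between replicates 1 and 2 had a correlation of -0.14 between the groups. This value cannot show whether libraries of the same number were prepared together. The shortest peaks were 200 bp in both replicate 1 lists, and 233 and 256 bp in the replicate 2 lists. With the replicate block 6 receptor regions rose and 1 fell, and 985 and 652 over all.

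Gained regions went from 62 to 17 with equal peak numbers per list, 103 within 50 kb, 111 and 210 in the replicate 1 and 2 pairs alone, and 71 to 167 with 1 library left out (115 without I-BET151 replicate 2, 167 without replicate 1). As shares, receptor regions went from 14.0% to 8.95% with equal peak numbers, and all regions from 17.0% to 9.19%. With 1 library left out the shares were 16.1 to 41.6% at the receptors and 18.3 to 43.7% over all. Lost regions went from 9 to 0 at a −log10 p of at least 10, 106 in the replicate 1 pair and 9 to 83 with 1 library left out (83 without DMSO replicate 2, 23 without I-BET151 replicate 2). Over all regions, lost ones went from 3896 to 195 at that −log10 p, and to 4060 to 33910 with 1 library left out. Genes with a higher locus percentile in both I-BET151 lists went from 20 to 7 with equal peak numbers and to 21 to 35 with 1 library left out (35 without DMSO replicate 1). Their median difference went from 9.19 to 0 with equal peak numbers. Promoters called in both DMSO lists went from 24 to 13 at a −log10 p of at least 10. For these counts of genes and promoters no share over all genes is given here. The cause of the changes was not tested, except that fewer peaks or libraries enter by construction.

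Of 130 values of single regions and genes, 89 stayed, 15 lost their call, 13 reversed and 13 moved by more than the SD of the replicate pairs. With equal peak numbers NR2F2 moved to 8.53, NR4A1 to 11.7, NR4A2 to -29.7, NR2C1 to -25.1 and NR0B1 to 0. By −log10 p, NR4A2 turned to 11.3 and NR2C1 to 5.99. In the replicate 2 pair alone, PPARA turned to 13.95, NR1I2 to 15.4, ESRRA to 3.89 and NR2C1 to 4.85. Without DMSO replicate 1, PPARA was at 8.89, NR1I2 at 16.4, ESRRA at 8.74 and NR2C1 at 10.99, and without I-BET151 replicate 1 PPARA was at 2.89 and NR1I2 at 1.97. NR2C1 was at 5.98 without I-BET151 replicate 2. Without DMSO replicate 2 the same 4 genes were at -15.9, -17.5, -11.9 and -11.3, and NR0B1 was at 54.6 without I-BET151 replicate 2. Summits of 6 to 55 reads limit the gained calls, and the part of the fewer reads behind the I-BET151 lists in the lost calls was not tested.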
